A study of Mus musculus with 2 samples.

Results

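Peaks of open chromatin were counted at 10 genes of skeletal myogenesis in mouse cardiac progenitor cells (CPCs). The genes encode the 4 myogenic regulatory factors (Myod1, Myf5, Myf6 and Myog), 5 skeletal myosin heavy chains (Myh1, Myh2, Myh3, Myh4 and Myh8) and the muscle creatine kinase Ckm. A peak was counted for a gene when its deposited gene symbol was that gene, and genes without such a peak were counted as 0. By this rule 3 of the 10 genes had a peak, and 4 of the 26232 distinct peaks of the list were theirs. The 10 genes lie at only 5 loci, since Myf5 and Myf6 are neighbours and the 5 myosin genes form 1 cluster, so they are not 10 independent observations.

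Open chromatin was mapped by ATAC-seq, an assay that uses Tn5 transposase to cut and tag accessible DNA. The only group was day 5 of cardiac differentiation of E14 Tg(Nkx2–5-EmGFP) embryonic stem cells, labelled as strain C57BL/6. This line carries a fluorescent reporter for the heart factor Nkx2-5. The paper's directed route used BMP4, Activin A and VEGF, then VEGF, bFGF and FGF10. Its methods for this assay do not name the route. The peak list is named as control, and whether these cells carried a control vector is not stated in the paper. The 2 replicates of the group came from separate differentiations and share a single list that keeps only peaks called in each of them. The stem cells were kept on fibroblast feeders and, in the directed route, moved to gelatin before they were aggregated. Sorting of reporter-positive cells is described for RNA and for a hanging drop route, and is not stated for the cells of this assay. The Isl1 knockdown that the series names is not analysed here. There was therefore no comparison between conditions and no error between replicates for any value, read depth was unknown, and no test was made. A missing peak means that none was listed and is not a measurement of closed chromatin.

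Skeletal muscle forms from somites and from head mesoderm under the control of the myogenic regulatory factors. These basic helix-loop-helix proteins pair with E proteins and bind the E-box, a short DNA element with the letters CANNTG. Myf5 and Myod1 set the muscle cell fate, Myf6 acts in both fate choice and later fibres, and Myog drives terminal differentiation. Their downstream genes include the fast and developmental myosin heavy chains and Ckm, which buffers ATP in contracting fibres. Heart muscle forms without these factors and relies on other myosins. Ckm is shared by both kinds of muscle and is also active in the heart.

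Only Myod1 had a peak at its start site, Myh3 and Myog had peaks elsewhere, and the other 7 genes had none. The share of genes with a peak, 3 of 10, stood beside 62.5% of all 21896 protein coding genes. For a peak midpoint within 1 kb of the start site the count was 1 of 10, beside 50.1% of protein coding genes. Of the 4 peaks 1 was that close, beside 44.9% of all peaks, and 1 gene (Myog) had more than 1 peak, beside 24.4% of coding genes. The mean was 0.40 peaks per gene, against 1.07 over all protein coding genes. Peaks away from the start site were also a larger part of what was found, since 2 of the 3 genes with a peak had none within 1 kb, beside 19.9% of all protein coding genes with a peak. With 3 genes this share is no more than a description.

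**Figure D1:**
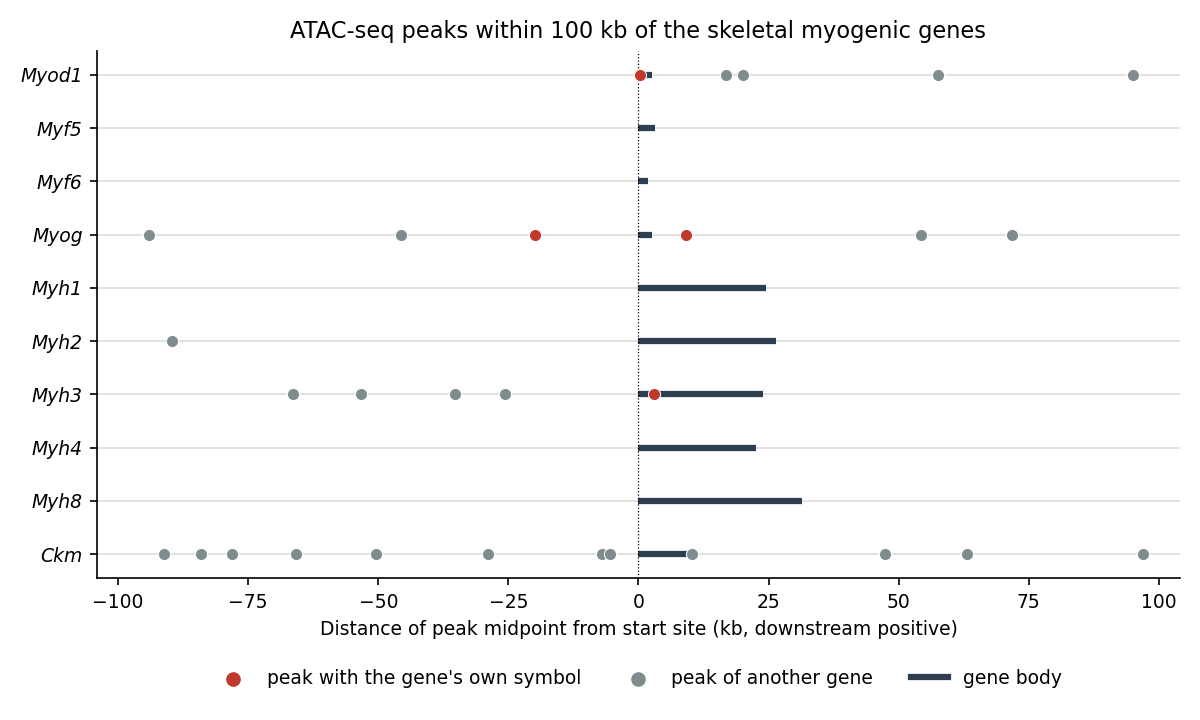
Peaks around the start site of each gene. The horizontal axis gives the distance of the peak midpoint from the start site in kb, red points are peaks that carry the gene's own symbol, grey points are peaks of other genes and dark bars are gene bodies. Myod1 has a red point at 0, Myog has 1 on each side, Myh3 has 1 inside the gene, and no point lies within 100 kb of Myf5, Myf6, Myh1, Myh4 or Myh8.

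Myod1 lies on the plus strand of chromosome 7 (53631844 to 53634462, mm9, accession NM_010866). Its peak reached from 631 bp before to 1246 bp after the start site (53631213 to 53633090), with the midpoint 307 bp downstream in the coding part of the gene. The peak was 1878 bp wide, wider than 82.8% of the 11772 peaks within 1 kb of a start site, whose median was 1326 bp (quartiles 1072 and 1691 bp). Myod1 thus had both the widest and the only promoter peak of the 10 genes. GC content of the peak was 60.0% and its 91 CpG sites gave an observed over expected ratio of 0.54. The flanks of Myod1 were unequal in the list. Downstream the next peak was 16882 bp from the start site and carried the symbol of Kcnc1, a neuronal potassium channel gene. Upstream the next peak was 275865 bp away, at Kcnj11, a potassium channel gene of pancreas and muscle. The stretch of 275 kb between the Kcnj11 and Myod1 peaks held the start sites of 3 other coding genes (Abcc8, Ush1c and Otog) and was longer than most, since 6.88% of the 26211 stretches between neighbouring peaks were at least as long. The distal enhancers of Myod1 known from embryos lie in the upstream flank, where no peak was listed.

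Myog had 2 peaks and neither was at its promoter. The gene lies on chromosome 1 (136186581 to 136189124, plus strand, NM_031189) and its start site is in a stretch of 28.0 kb without a peak. The upstream peak was centred 19797 bp before the start site in intergenic sequence (136166439 to 136167130). It was 692 bp wide, the narrowest of the 4, and narrower than the lower quartile of 741 bp among 6397 peaks at 10 to 50 kb. The downstream peak was centred 9128 bp after the start site (136195114 to 136196306) and was 1193 bp wide, against a median of 1014 bp for 3612 peaks at 1 to 10 kb. Its midpoint lay in a coding exon of Ppfia4, a gene of the liprin scaffold family. The symbol Myog on this peak records the nearest start site and not a location inside Myog. The pair also differed in base composition. The upstream peak had a GC content of 45.4% and 10 CpG sites (ratio 0.30), and the downstream peak 63.0% and 69 CpG sites (ratio 0.59, higher than in 84.6% of peaks at 1 to 10 kb).

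Myh3, the embryonic myosin heavy chain, was the only myosin gene of the 5 with a peak. The gene spans chromosome 11 from 66891802 to 66915793 on the plus strand (NM_001099635). Its peak lay in an intron (66894436 to 66895276), began 2634 bp past the start site and was centred at 3053 bp. At 841 bp it was wider than 29.2% of peaks at 1 to 10 kb, and its CpG ratio of 0.28 was close to the median of 0.29 in that class. No peak overlapped the Myh3 promoter, and the next peak upstream was 25734 bp away and carried the symbol of Adprm, a gene of an ADP-ribose pyrophosphatase.

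**Figure D2:**
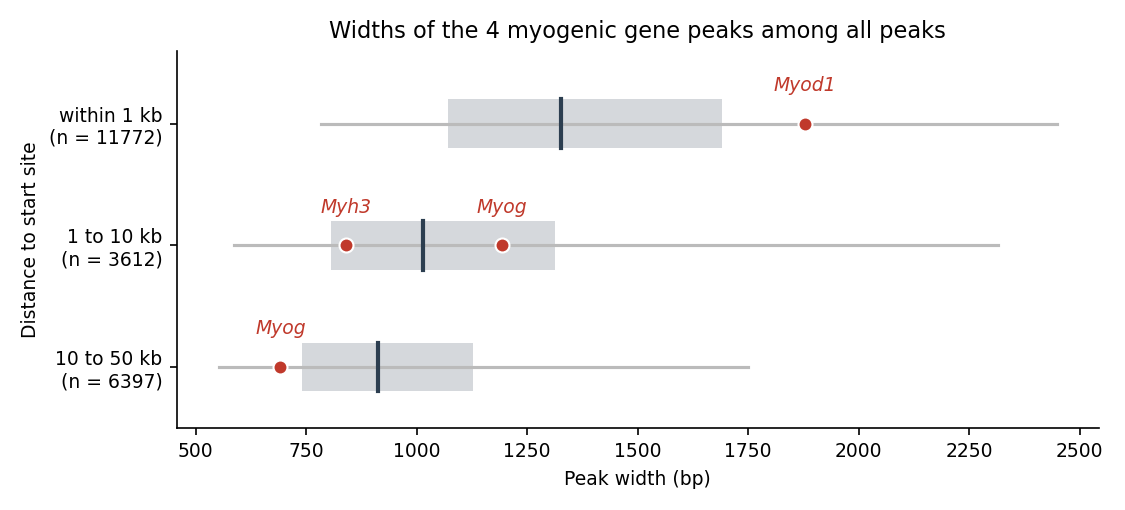
Widths of the 4 peaks in bp (red points) beside all peaks at the same distance from a start site. Grey boxes span the quartiles, dark bars mark medians and lines reach from the 5th to the 95th percentile. Myod1 at 1878 bp lies above the upper quartile of its class, Myog at 692 bp lies below the lower quartile of its class, and the other 2 peaks lie inside the boxes.

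The sequences of the 2 peaks in noncoding DNA are shown because they are the only open sites of these genes outside exons and start sites. The central 300 bp of each are given on the plus strand of mm9 from NCBIM37, with E-boxes (CANNTG) in capitals.
Myog upstream peak, chr1:136166634-136166933: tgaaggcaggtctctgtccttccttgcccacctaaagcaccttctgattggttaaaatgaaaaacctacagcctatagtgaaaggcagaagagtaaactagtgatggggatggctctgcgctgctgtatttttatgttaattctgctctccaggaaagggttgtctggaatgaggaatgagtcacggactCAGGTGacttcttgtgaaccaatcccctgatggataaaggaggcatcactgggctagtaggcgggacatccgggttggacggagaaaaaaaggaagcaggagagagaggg
Myh3 intron peak, chr11:66894705-66895004: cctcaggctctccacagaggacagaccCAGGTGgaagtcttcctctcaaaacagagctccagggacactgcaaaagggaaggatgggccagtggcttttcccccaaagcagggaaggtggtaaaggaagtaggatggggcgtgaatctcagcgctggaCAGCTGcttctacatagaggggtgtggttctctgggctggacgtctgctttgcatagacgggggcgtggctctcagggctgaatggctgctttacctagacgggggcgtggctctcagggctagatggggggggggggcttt
The Myog window held 1 E-box, CAGGTG, and the Myh3 window held 2, CAGGTG and CAGCTG. An E-box stood in the central 300 bp of 68.4% of all peaks and of 76.3% of peaks beyond 1 kb from a start site, so its presence in these windows is common. CAGCTG, an E-box core often bound by the myogenic factors, stood in 21.2% of all windows and in 24.5% beyond 1 kb. The Myog window also held 2 matches to the MCAT element CATTCC, bound by TEAD factors and first known from muscle promoters, and 1 match to GATAA, the core of GATA sites, counted on both strands. CATTCC was present in 16.5% and GATAA in 20.2% of all windows, and in 22.4% and 28.8% of those beyond 1 kb.

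Over their full width the 4 peaks held 24 E-boxes, of which 4 were CAGCTG. The Myod1 peak held 12, or 6.39 per kb, more than in 89.6% of peaks within 1 kb of a start site (median 3.72). The Myh3 peak held 5 (5.95 per kb) and the upstream Myog peak 4 (5.78 per kb), both inside the quartiles of their classes. The downstream Myog peak held 3, or 2.51 per kb, fewer than the lower quartile of 3.44 in its class. E-box density thus ran from low to high within the 4 peaks and was not shared by them. The MEF2 motif was counted as an exact match to YTAWWWWTAR (Y for C or T, W for A or T, R for A or G). None of the 4 peaks held it over the full width. In the shorter central 300 bp it was found in 0.923% of all peaks, so its absence there is usual. A share over full widths is not given.

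The 7 genes without a peak fell at 3 loci, and these differed in how far the nearest peak was. Ckm lies at 19996443 to 20006932 on chromosome 7 (plus strand) in a region dense in peaks, with 12 within 100 kb of its start site, while the median coding gene had 4 (quartiles 2 and 7). The nearest was 5412 bp upstream and carried the symbol of Klc3, a kinesin light chain gene whose start site also had a peak. Another peak of 948 bp (20006232 to 20007179) overlapped the 3′ end of Ckm and was assigned to A930016O22Rik, whose start site was 61 bp from its midpoint. So Ckm had a peak inside its gene body that counted for a neighbour, and peaks overlapped the bodies of 3 of the 10 genes (Myod1, Myh3 and Ckm), beside 61.7% of coding genes. Counting by position, with gene bodies extended by 10 kb on both sides, gave peaks at 4 of the 10 genes (Myod1, Myog, Myh3 and Ckm), beside 71.4% of coding genes. In this count Ckm had 3 peaks and Myod1, Myog and Myh3 had 1 each.

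Myf5 (106919964 to 106923190) and Myf6 (106929916 to 106931785), both on the minus strand of chromosome 10, shared a stretch of 532 kb without a peak (106710216 to 107242211). Of all stretches between neighbouring peaks, 3.17% were at least as long. Counted by gene, 11.7% of coding start sites lay in a stretch at least as long. The median stretch was 33.9 kb. For Myf5 the nearest peak was 213760 bp downstream, and for Myf6 222355 bp downstream, in both cases the peak at the start site of Lin7a, a cell polarity gene. On the other side the nearest peak was 319291 bp upstream of Myf5 and was assigned to Ptprq, a phosphatase gene of the inner ear. The start site of Ptprq itself was in the same stretch. In embryos Myf5 and Myf6 are driven by many enhancers spread over the upstream region, and no peak was listed there. Only 6.66% of coding start sites were as far from a peak as that of Myf5, and 6.44% as far as that of Myf6.

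The adult and perinatal myosin genes lay together in a second long stretch. Myh2, Myh1, Myh4 and Myh8 are arranged in this order downstream of Myh3 on the plus strand of chromosome 11, between 66984529 and 67122136. Myh2, Myh1 and Myh4 encode fast adult forms and Myh8 the perinatal form. The stretch ran for 373 kb from the end of the Myh3 peak to a peak of Gas7 (66895277 to 67268151) and held 6 coding start sites, those of these 4 genes, of Gm10995 and of Myh13, the extraocular myosin. Of all stretches, 4.84% were at least as long, and 0.797% (209 of 26211) held 6 or more coding start sites, a limit taken from this stretch. Counted by gene, 14.9% of coding start sites lay in a stretch at least as long. The peak nearest to Myh2 was 89674 bp upstream, to Myh1 118699 bp upstream and to Myh4 156459 bp upstream, each time the Myh3 peak, while the nearest to Myh8 was 178239 bp downstream at Gas7. The single Myh3 peak was thus the nearest peak of 4 of the 5 myosin genes, Myh3 included.

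**Figure D3:**
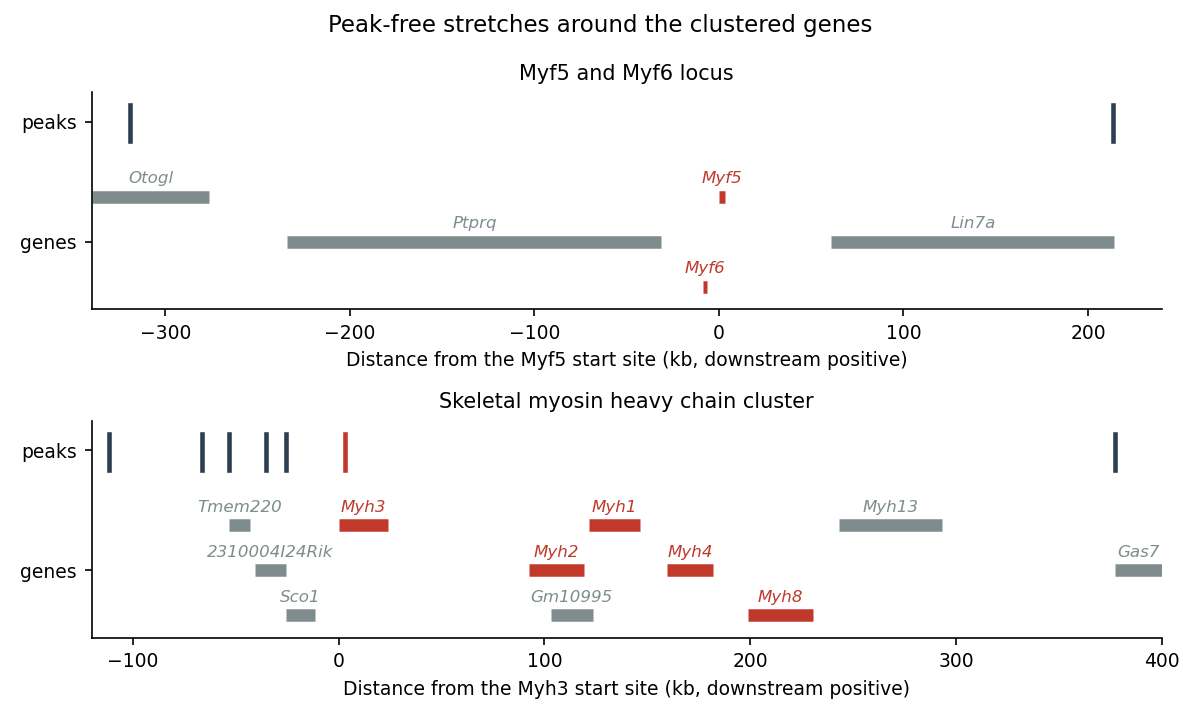
Peaks (vertical marks) and coding genes (bars) at the Myf5 and Myf6 locus and the skeletal myosin cluster, by distance in kb from the start sites of Myf5 and Myh3. Red marks the 10 genes and their peaks, dark marks are peaks of other genes and grey bars are other genes. No peak lies in the 532 kb around Myf5 and Myf6 or in the 373 kb downstream of the Myh3 peak.

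Ordered by distance to the nearest peak of any gene, the 10 genes were Myod1 (307 bp), Myh3 (3053 bp), Ckm (5412 bp), Myog (9128 bp), Myh2, Myh1, Myh4, Myh8, Myf5 and Myf6. There was a gap in this order between Myog and Myh2, and without replicate values the order of neighbours could not be set against error. The median over the 10 genes was 104186.5 bp, against 634 bp over 22359 coding genes (upper quartile 26574.5 bp). No peak lay within 100 kb of 5 of the 10 start sites, beside 12.2% of coding start sites. Those 5 genes came from only 2 of the 5 loci.

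Reads from sequence that occurs more than once in the genome can be placed at the wrong copy, which bears on gene families such as the myosins. Within 500 bp of the start sites, the share of 32-base words that occur more than once in NCBIM37 was 1.24% for Myh1 and 2.58% for Ckm, and 0 for the other 8 genes. Over whole gene bodies it ran from 6.46% in Myh3 to 10.0% in Myh2 and Myh8 among the myosin genes, and was 8.08% in Ckm, 5.00% in Myf6 and 0 in Myod1, Myf5 and Myog. The shares in the myosin genes lay on both sides of that in Ckm, and no share over all genes was computed. The share was 4.69% in the upstream Myog peak and 0 in the other 3 peaks. Exact words do not cover near-identical copies, and whether misplaced reads affected the peak counts was not tested.

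All 10 promoters were poor in CpG, a feature the choice of genes did not use. Promoters, taken as 500 bp on either side of the start site, counted as CpG-rich where the CpG ratio reached 0.6 and GC made up 50% or more of the bases, which held for 44.6% of coding promoters and for none of the 10. A peak overlapped 53.5% of all coding promoters, 89.4% of CpG-rich and 24.7% of CpG-poor ones. The count of 1 in 10 is therefore to be read against 24.7%, which is nearer to it than the share over all genes. CpG ratios ran from 0.15 at Ckm to 0.48 at Myod1, and the gene with the highest ratio was the gene with a promoter peak. Of the 729 coding promoters with a ratio of 0.45 to 0.50, as at Myod1, 58.0% overlapped a peak. For Myf5 (ratio 0.41) and Myh2 (0.42) the share in their bin was 46.2%, and for Myog (0.35) and Myf6 (0.38) it was 29.3%. It was 21.7% for Myh8 (0.31), 14.2% for Myh4 (0.26), 8.47% for Myh1 and Myh3 (both 0.21) and 4.55% for Ckm. At Myf5 and Myh2 the absence of a peak was thus about as common as its presence among promoters of like CpG ratio, and at Ckm, Myh1 and Myh3 absence was the usual state. The bins did not match GC content, which was 42.6% at the Myh2 promoter against a median of 54.8% over coding genes.

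**Figure D4:**
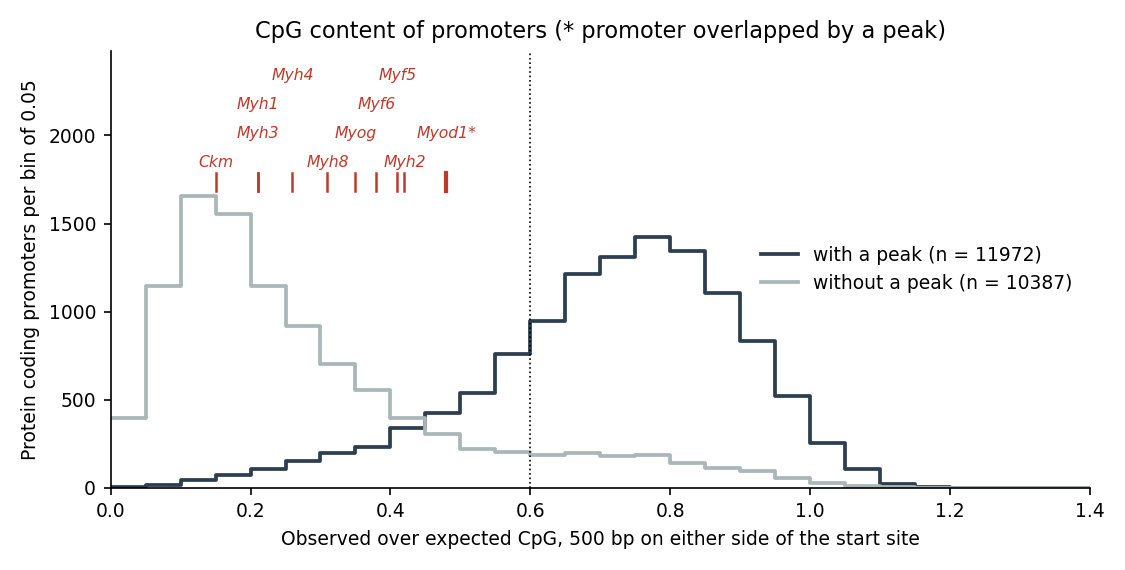
Observed over expected CpG in 500 bp on either side of the start site, for coding promoters with a peak (dark line, n = 11972) and without (grey line, n = 10387), in bins of 0.05. Red marks give the 10 genes, the asterisk marks the promoter with a peak and the dotted line is at 0.6. All 10 genes lie left of the dotted line and Myod1 lies farthest to the right among them.

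Promoter sequences from RefSeq (GRCm38.p6, 250 bp before to 50 bp after the start site) matched 8 of the 10 genes, and Myod1 and Myf6 were not matched. The 250 bp upstream of Myog and Ckm are shown as examples of muscle promoters without a peak, with E-boxes in capitals.
Myog upstream, chr1:134289754-134290003, plus strand: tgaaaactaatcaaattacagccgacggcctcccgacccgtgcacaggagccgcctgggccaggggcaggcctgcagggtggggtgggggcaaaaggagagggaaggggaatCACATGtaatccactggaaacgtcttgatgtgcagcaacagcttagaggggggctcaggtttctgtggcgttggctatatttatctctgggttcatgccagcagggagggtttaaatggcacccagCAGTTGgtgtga
Ckm upstream, chr7:19410844-19411093, plus strand: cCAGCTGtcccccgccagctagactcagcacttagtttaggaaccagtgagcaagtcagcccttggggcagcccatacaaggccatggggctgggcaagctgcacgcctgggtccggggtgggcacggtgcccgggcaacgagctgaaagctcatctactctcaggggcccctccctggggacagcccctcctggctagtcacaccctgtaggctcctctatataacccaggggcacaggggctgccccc
The Myog sequence held the E-boxes CACATG and CAGTTG, and the Ckm sequence held CAGCTG. E-boxes were present in 5 of the 8 promoters (Myog, Myh3, Myh4, Myh8 and Ckm), close to the 69.0% of 21262 coding promoters. CAGCTG was present in 2 of 8 (Myh4 and Ckm), beside 15.6%. An exact MEF2 match, the AT-rich site of factors that act with the myogenic regulators, was present in 3 of 8 (Myh1, Myh4 and Myh8). This stood beside 2.74% of promoters, and the 3 genes belong to the same cluster. That share was not matched for base composition. Within 500 bp of the start site GC content was 41.6% at Myh1 and Myh4 and 46.7% at Myh8, against a median of 54.8% over coding genes. Near matches were not counted, such as ctatatttat in the Myog sequence, which misses the pattern only at its last base. CATTCC was present in 2 of 8 (Myh1 and Myh4), beside 13.6%, and GATAA in 3 of 8 (Myf5, Myog and Myh2), beside 22.5%. The myosin promoters with a MEF2 motif all lay in the stretch of 373 kb, and none of these 8 promoters overlapped a peak.

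Most genes that act above or beside the myogenic factors had a peak, and most had CpG-rich promoters, the class in which 89.4% of all promoters overlapped one. CpG-rich promoters made up 11 of 15 among upstream regulators, 9 of 10 among cofactors and 6 of 10 among inhibitors, of which 8, 8 and 6 overlapped a peak. These counts are therefore not on the same footing as those of the 10 CpG-poor members. Beside 62.5% of all coding genes, all 15 upstream regulators had a peak, with 39 peaks in total. Within 1 kb of the start site 8 of 15 had a peak (53.3%), near the 50.1% of all coding genes. Lbx1, a homeobox gene of migrating muscle precursors, had 5 peaks with the nearest 18808 bp from the start site. Pax3, a paired box gene of somites, had 4 with the nearest at 102 bp. All 10 cofactors had a peak and 9 had 1 within 1 kb, led by the E protein gene Tcf4 and Mef2c with 4 peaks each and the E protein gene Tcf12 with 3. Of 10 inhibitors 8 had a peak, each with 1 within 1 kb. Id3, whose protein sequesters E proteins, had 7, and Id2 and the MyoD family inhibitor gene Mdfi had 4 each. No peak carried the symbol of Hdac5 or of Mstn (myostatin), although a peak of another gene lay 14 bp from the Hdac5 start site.

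The contractile genes of skeletal muscle were closer to the 10 genes. Of 30 contraction and fusion genes 13 had a peak (43.3%), beside 62.5% of all protein coding genes. Within 1 kb of the start site 4 had 1 (13.3%), beside 50.1%. Mb (myoglobin) had 4 peaks with the nearest 5818 bp upstream, Ryr1 (the skeletal calcium release channel) had 3 with the nearest at 13 bp, and Mymx (a myoblast fusion peptide) had 3 with the nearest 8502 bp upstream. No peak carried the symbols of Myl1, Mylpf, Tnni2, Tnnc2, Actn3, Mybpc1, Cacna1s, Cacng1, Atp2a1, Chrnd, Chrng, Musk, Rapsn, Mymk, Myot, Cav3 or Casq1, although a peak of another gene overlapped the Actn3 promoter. CpG-poor promoters made up 29 of the 30, of which 4 overlapped a peak, beside 24.7% of all CpG-poor promoters. For comparison, 12 of 16 cardiac contraction genes had a peak (75%), and 8 of the 16 (50%) had 1 within 1 kb. The share within 1 kb was close to the 50.1% of all protein coding genes. Of the 16 promoters 12 were CpG-poor, of which 4 overlapped a peak. Ryr2, the cardiac release channel, had 6 peaks, and Actn2 and Tpm1 had 4 each. Tnnc1, Myl3, Myl4 and Nppa had none by symbol, and at Myl4 a peak of another gene lay 167 bp from the start site.

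Among 9 other myosin heavy chain genes 6 had a peak (66.7%), non-muscle, smooth muscle and sarcomeric forms included, and 4 had 1 within 1 kb (44.4%). Both shares were near those of all protein coding genes, 62.5% and 50.1%. The non-muscle genes Myh9, Myh14 and Myh10 had 6, 4 and 3 peaks, and each had 1 at its start site, as had Myh11 of smooth muscle. The sarcomeric genes Myh7b and Myh15 had 1 peak each, 2366 bp and 221061 bp from the start site. Myh6 and Myh7 of the heart and Myh13 had none. The brain type creatine kinase Ckb and the mitochondrial Ckmt1 had 2 peaks each, with 1 within 1 kb, and Ckmt2, the mitochondrial form of striated muscle, had none.

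**Figure D5:**
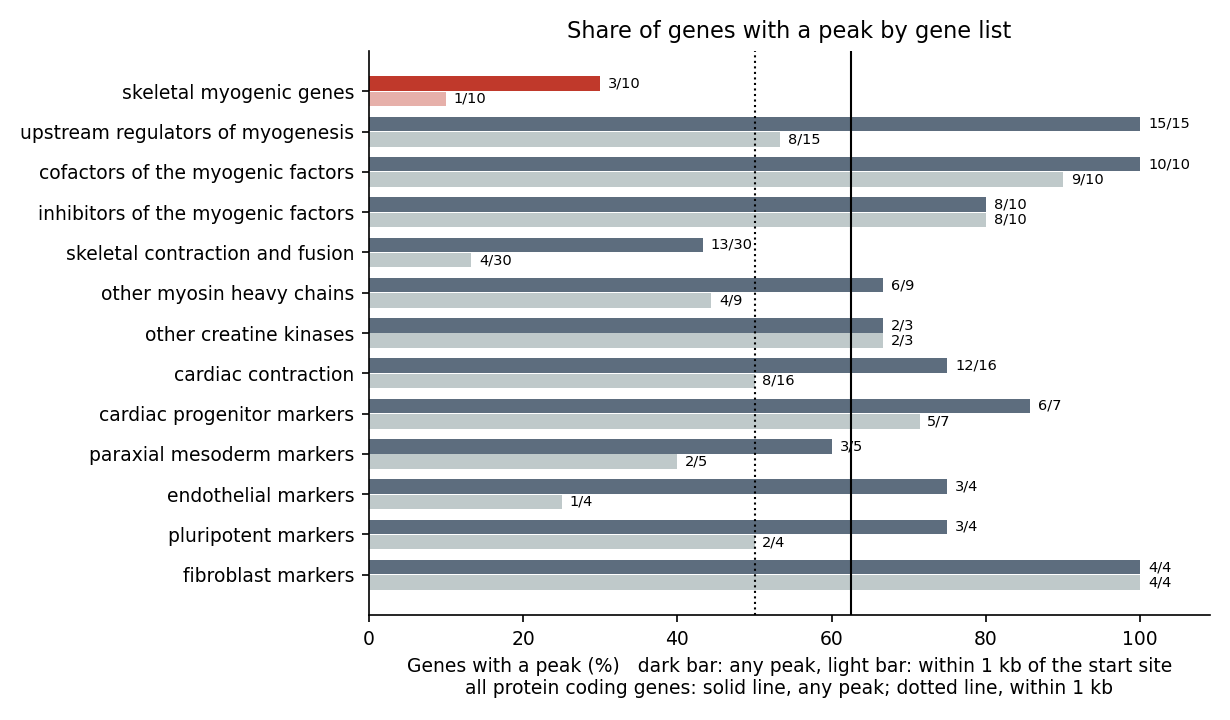
Share of genes with a peak in percent, for the 10 genes (red) and 12 other lists. Dark bars count any peak with the gene's symbol, light bars count peaks with the midpoint within 1 kb of the start site, and the solid and dotted lines give both shares over all protein coding genes (62.5% and 50.1%). The skeletal myogenic genes have the lowest bars of the 13 lists, at 3 of 10 and 1 of 10.

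By the share of genes with any peak, markers did not single out the labelled cell type in this list. Most cardiac progenitor, paraxial mesoderm, endothelial, pluripotency and fibroblast markers had a peak, as had 62.5% of all coding genes. Of the skeletal muscle markers Myod1 and Myog had a peak, and Myf5 and Myf6 had none. The median number of peaks per gene was 4.0 for cardiac progenitor and 2.5 for fibroblast markers. It was 2.0 for paraxial mesoderm and for pluripotency, and 1.5 for endothelial markers. A peak within 1 kb was present at 5 of 7 cardiac progenitor markers (71.4%), beside 50.1% of all protein coding genes. It was present at 4 of 4 fibroblast (100%), 2 of 4 pluripotency (50%) and 2 of 5 paraxial mesoderm markers (40%). Among endothelial markers 1 of 4 had 1 (25%). With lists of 4 to 7 genes these shares are no more than a description. Of 7 cardiac progenitor genes 6 had a peak, with 8 at Isl1, 6 at Tbx20 and 5 at Tbx5, and Hand2 had none by symbol. Of the paraxial mesoderm genes 3 of 5 had a peak, with 4 at Pax3 and 2 each at Tcf15 and Meox1, and Tbx6 and Msgn1 had none. Of the endothelial genes 3 of 4 had a peak by symbol, with 4 for Kdr, 2 for Cdh5 and 1 for Pecam1, and Tek had none. The nearest of these peaks was 187 bp from the start site for Kdr, 72739 bp for Cdh5 and 7971 bp for Pecam1. Of the pluripotency genes 3 of 4 had a peak, with 2 each at Sox2, Zfp42 and Nanog, and Pou5f1 had none. All 4 fibroblast genes had a peak, with 3 each at Thy1 and Col1a1 and 2 each at Pdgfra and Col1a2. In a bulk sample a peak can come from a minority of the cells, fewer open cells and less open chromatin per cell cannot be told apart, and whether other cell types contributed the peaks at Myod1, Myog and Myh3 was not tested.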

How the data were processed

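ATAC-seq of day 5 CPCs was represented by 1 deposited peak list for both replicates. Per the study's methods, the authors mapped reads to mm9 with bowtie2, filtered them with samtools, removed duplicates with Picard 1.136, called peaks per replicate with MACS14 without a model and with a fixed shift, dropped ENCODE blacklist peaks and kept peaks that shared 1 bp or more between replicates (bedtools 2.15). No Tn5 offset correction beyond the shift is described. Which replicate gave the edges of a kept peak is not stated, so widths and midpoints may be those of 1 replicate. The nearest start site was assigned with annotatePeaks.pl, described for the ChIP-Seq peaks. The deposited columns give start and end and the signed distance in bp, with no score, count or p-value, so depth and replicate error are unknown and width reflects caller and depth as well as chromatin.

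From the 26429 lines 26232 distinct intervals were kept. Peaks were linked to genes by symbol, and for all genes by accession to a RefSeq table (GRCm38.p6, names only; 99.9% matched). For 62.7% of peaks with an annotated gene the deposited distance equalled that to a GENCODE vM1 start site within 1 bp. The 5′-most coding start site was used. Motifs were counted on both strands with overlaps allowed, palindromes once. Scripts used Python 3.11.15 with pandas 2.3.3, numpy 2.4.6 and pysam 0.24.0, and distances and motif counts were tested on simulated data.

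All 10 members were named, with the genes of the nearest peaks on either side, and from each other list the genes without a peak and the 3 with most peaks (ties by distance), except 1 gene that is not reported here. The members and lists were chosen with earlier results of these data known. Peak-free stretches, word repeats, CpG bins and motifs other than the E-box were chosen after the values were seen. The list as used here may lack some original lines.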

Additional observations from a re-analysis of the deposited data

How the results depend on the processing

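The 31 results were recomputed under 82 combinations of result and alternative. Only the 20 distances per gene could change sign, and none did. Of 62 combinations on the main counts, medians and shares, 55 stayed within 1.5 times a count, within the counting interval of a share or at the same value, and 7 moved. Counting every line or only peaks of at least 500 bp moved none. Keeping peaks wider than the median (1081 bp) left, by construction of the filter, 2 peaks at the 10 genes (of Myod1 and Myog, with Myh3 lost), with a median width of 1535.5 bp instead of 1017 bp. It lowered the share of all protein coding genes with a peak to 44.2% and the skeletal contraction and fusion genes with a peak from 13 to 8. Linking by extended gene body raised the share over all genes to 71.4%. Measuring to the nearest peak edge gave a median distance of 103765.5 bp, and CAGCTG alone gave 4 of the 24 E-boxes. Of the 20 distances per gene, 12 moved, in each case without passing to the other side of the start site. The alternatives for the other gene lists were chosen after seeing the data.

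No replicate was left out, since the list holds no value per replicate. No paired analysis was possible because all samples form a single group. Depth limits all counts to an unknown degree, and regions called in 1 replicate alone are not listed.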
